A study of Mus musculus with 3 samples.

Results

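The genes described here are those that the deposited round spermatid table types as antisense and whose mean over the 3 genotype libraries was at least 5. This rule took 229 genes, of 571 antisense genes and 17946 genes in all. They were thus chosen by the deposited gene type and by the same expression values that are described below, so their abundance is a description and not a finding. Round spermatids are the haploid germ cells that follow meiosis. They came from 28-day-old C57BL/6 mice of 3 genotypes, MiwiΔIns, MiwiR371W and wild type (WT), and were sorted by Hoechst fluorescence. Each genotype had 1 mRNA-seq library. How either Miwi allele was made, and how many animals went into a library, is not given in the sources used here. Miwi, or Piwil1, encodes the PIWI protein of the pachytene piRNA pathway in male germ cells.

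An antisense gene is transcribed from the strand opposite another gene, usually a protein-coding one, and most such RNAs have no known function. Some lie across exons of the other gene, some inside its introns, and some start next to its promoter and run the other way. Meiotic and haploid germ cells transcribe an unusually large share of the genome, including many such noncoding RNAs, and the cAMP-responsive factor CREM drives much of the haploid program.

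Whether these libraries keep the strand of the RNA is not given in the sources used here. Without strand, reads from a member and from the gene opposite it cannot be told apart where their exons overlap. This touched most members: 129 of the 219 with a gene model in GENCODE M21 (GRCm38) shared exon bases with a gene on the other strand, a median of 29.3% of their own exon bases. In 31 of them the share was over 50%, and in 5 it was at least 99%. Each share counts the exons of all genes on the other strand, not only those of the partner named below. A further 61 overlapped an opposite gene without shared exon bases, 12 lay beside one with starts at most 1 kb apart and pointing away, and 17 had none of these. For the remaining 10 the annotation held no model. GENCODE M21 itself types 201 of the 219 as antisense and 6 as protein-coding.

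Promoter windows of 6 members are printed to show the DNA in front of the genes that the results turn on. RefSeq (GRCm38.p6) held a gene for 145 members and, for 103 of them, a window at the start used here, from 250 bases before to 50 bases after it. 4930403D09Rik (chr11:34299492-34299791, plus strand) is among the most abundant members. 1700121F15Rik, RefSeq Ube4bos3 (chr4:149334389-149334688, plus strand), and 1700081H22Rik, RefSeq Nell1os (chr7:50575835-50576134, minus strand), were at least 2-fold lower in MiwiR371W than in WT. Gm13539 (chr2:25784367-25784666, plus strand) was higher in both mutants. 4933425H06Rik, RefSeq Sox5os3 (chr6:144672618-144672917, plus strand), and 4930564K09Rik, RefSeq Rbm46os (chr3:82904227-82904526, plus strand), were chosen after their values were seen, for the TGACGTCA motif and for the number of CG dinucleotides. Capitals mark CG dinucleotides and the motif TGACG on either strand.
4930403D09Rik: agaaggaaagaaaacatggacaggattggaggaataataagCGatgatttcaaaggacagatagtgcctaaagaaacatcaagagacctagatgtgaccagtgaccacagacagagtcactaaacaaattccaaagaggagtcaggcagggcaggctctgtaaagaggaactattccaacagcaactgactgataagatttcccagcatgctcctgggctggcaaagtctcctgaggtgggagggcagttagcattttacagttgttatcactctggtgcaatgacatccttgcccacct
1700121F15Rik: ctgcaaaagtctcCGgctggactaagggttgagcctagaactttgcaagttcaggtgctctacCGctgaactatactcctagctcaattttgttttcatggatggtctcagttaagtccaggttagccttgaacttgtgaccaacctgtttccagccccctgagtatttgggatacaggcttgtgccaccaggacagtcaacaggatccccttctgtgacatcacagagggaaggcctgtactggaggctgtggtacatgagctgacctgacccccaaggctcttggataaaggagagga
1700081H22Rik: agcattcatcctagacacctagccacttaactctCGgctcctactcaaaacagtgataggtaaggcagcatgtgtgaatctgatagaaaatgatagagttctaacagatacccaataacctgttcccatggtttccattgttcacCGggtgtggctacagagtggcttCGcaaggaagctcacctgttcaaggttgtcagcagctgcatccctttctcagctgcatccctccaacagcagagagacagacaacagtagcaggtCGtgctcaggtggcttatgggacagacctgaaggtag
Gm13539: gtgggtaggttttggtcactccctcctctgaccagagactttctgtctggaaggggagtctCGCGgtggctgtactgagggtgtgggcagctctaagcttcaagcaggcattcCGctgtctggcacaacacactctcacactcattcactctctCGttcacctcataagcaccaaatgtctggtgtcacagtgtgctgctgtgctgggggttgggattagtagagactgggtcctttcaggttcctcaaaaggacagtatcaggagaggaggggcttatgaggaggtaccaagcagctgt
4933425H06Rik: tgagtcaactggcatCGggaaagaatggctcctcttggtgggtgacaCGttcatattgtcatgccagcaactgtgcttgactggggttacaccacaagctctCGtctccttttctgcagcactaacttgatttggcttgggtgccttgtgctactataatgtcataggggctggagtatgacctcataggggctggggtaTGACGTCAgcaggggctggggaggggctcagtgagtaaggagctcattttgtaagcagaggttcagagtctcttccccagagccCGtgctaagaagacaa
4930564K09Rik: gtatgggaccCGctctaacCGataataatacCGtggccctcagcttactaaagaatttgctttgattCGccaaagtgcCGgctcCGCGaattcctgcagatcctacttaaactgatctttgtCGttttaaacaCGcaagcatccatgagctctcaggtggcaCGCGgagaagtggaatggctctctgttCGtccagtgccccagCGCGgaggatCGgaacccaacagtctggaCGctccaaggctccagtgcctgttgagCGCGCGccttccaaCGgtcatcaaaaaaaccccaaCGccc

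CG dinucleotides separated the members by how they start. Windows of the 38 members whose start lay within 1 kb of an opposite start held a median of 20.5 CG, against 4 in the other 65, 6 in all 103 and 7 over all 32851 RefSeq windows. The window of 4930564K09Rik, whose start points away from that of Rbm46, a germ cell RNA-binding protein gene, held 21, and that of 4930403D09Rik held 1. The motif TGACG, searched on both strands and counted also inside TGACGTCA, was in 44.7% of the divergent windows, 20% of the others, 29.1% of all 103 and 20.8% of all RefSeq windows. TGACGTCA, the full cAMP response element, was in 4 of 103 (3.88%) against 1.79% of all windows, in Gm15756, 4930525G20Rik, 4933425H06Rik and Gm16555. TATAAA was in 9.71% against 13.6%, and CCAAT in 35.9% against 37.4%. Of the 19 windows of members called in any comparison below, 3 held TGACG. These are matches of letters only. TGACG itself holds a CG, and windows were not matched for CG content, so the part of CG content in its shares was not tested. In members with an opposite start within 1 kb it lay a median of 118 nt away, so their windows can also cover the start of the opposite gene.

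The cells carried the label's markers. All 20 round spermatid markers were in the table at 5 or more in all 3 libraries, with summed values of 28703 in MiwiΔIns, 23929 in MiwiR371W and 22215 in WT. Those of 14 of 15 spermatocyte markers summed to 1475, 1673 and 1676 in the same order of genotypes. Sertoli cell markers, of which 2 of the 8 in the table had a mean of at least 5, summed to 26.3, 27.7 and 37.2. Macrophage markers, 5 of 7 in the table and 1 at a mean of at least 5, summed to 10.2 in MiwiΔIns, 13.7 in MiwiR371W and 6.62 in WT. The 7 peritubular and endothelial markers summed to 212, 166 and 264, with 1 of them at a mean of at least 5. In MiwiR371W 2 of them were at least 2-fold higher than in WT. Their median log2 ratio there was 0.55, against the direction of the sums. Piwil1 stood at 23.2 in MiwiΔIns, 23.5 in MiwiR371W and 20.3 in WT. Fragments per unit of value were 1.07 times those of WT in MiwiΔIns and 0.80 times in MiwiR371W, so that a value of 5 in 1 kb of effective length rested on about 73, 55 and 68 fragments in MiwiΔIns, MiwiR371W and WT. The part of marker levels and depth in the results below was not tested. In such bulk libraries, fewer cells of a type and less RNA per cell cannot be told apart.

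Members were mostly of modest abundance. All levels are on the deposited scale, which is per transcript length. Their means ran from 5.03 to 597 with a median of 15: 21 were at 100 or more and 71 under 10. Just inside the limit were B930086A06Rik, Gm11775 and Gm12977, at means of 5.03 to 5.13, and just outside were 4930480G23Rik at 4.99, 1810062O18Rik at 4.97 and 1700121C08Rik at 4.95. Together the 229 summed to 8969 in MiwiΔIns, 6975 in MiwiR371W and 7599 in WT, which is 1.29%, 1.11% and 1.17% of each library's total. The 10 most abundant held 30.9%, 33.3% and 30.8% of these sums. By name, 113 were predicted Gm genes and 94 came from RIKEN testis clone series. Transcripts were short, with a median of 687 nt, and 122 members had a single annotated transcript.

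**Figure D1:**
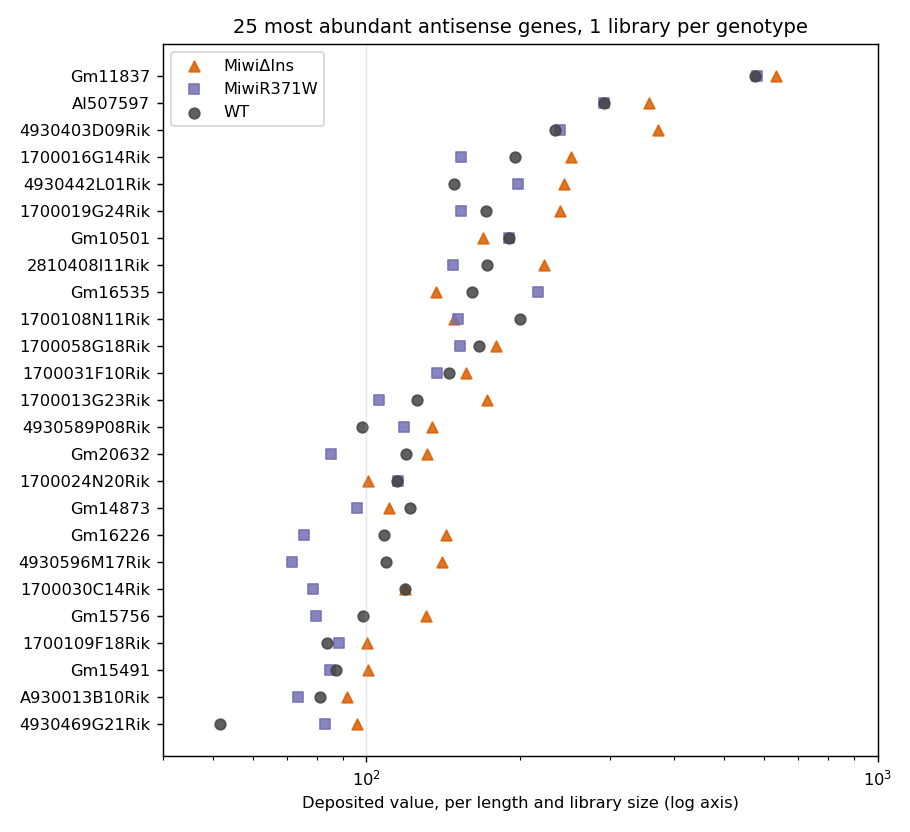
Deposited value (log axis) of the most abundant members, in order of their mean, with 1 point for each of the MiwiΔIns, MiwiR371W and WT libraries. Gm11837 stands alone at the top, at 574 to 634, and the MiwiΔIns point lies farthest right for 7 of the first 10 genes.

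Gm11837 (chr4:14929908-14953030, plus strand), antisense to Necab1, a neuronal calcium-binding protein gene, was the most abundant member. It stood at 634 in MiwiΔIns, 581 in MiwiR371W and 574 in WT, whereas Necab1 was at 4.51, 3.95 and 4.46. The antisense gene was thus far above its partner in all 3 libraries and nearly level between them, at a log2 ratio to WT of 0.14 in MiwiΔIns and 0.02 in MiwiR371W. All log2 ratios carry a pseudocount of 1, so they understate differences of low genes.

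AI507597 (chr4:141614026-141615604, plus strand) was next, at 358 in MiwiΔIns, 291 in MiwiR371W and 291 in WT. All its exon bases are also exon bases on the other strand, where its partner Tmem82 was at 72.1, 50.5 and 58.9. Without strand, the reads of the pair cannot be told apart where their exons overlap. 4930403D09Rik (chr11:34299707-34308113, plus strand), opposite Dock2, a guanine nucleotide exchange factor gene of blood cells, was at 373 in MiwiΔIns, 240 in MiwiR371W and 234 in WT. MiwiΔIns stood above the other libraries, at a log2 ratio to WT of 0.67, and MiwiR371W was at 0.03. Dock2 was at 17.6, 13.6 and 13.4, and 72.4% of the member's exon bases are shared with exons on the other strand.

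4930442L01Rik (chr3:96829826-96832096, minus strand) starts 58 nt from Pdzk1, a scaffold protein gene, and runs away from it, though 3.9% of its exon bases are shared with the other strand. Its values of 243 in MiwiΔIns, 198 in MiwiR371W and 148 in WT put WT lowest, at log2 ratios to WT of 0.71 in MiwiΔIns and 0.41 in MiwiR371W. Pdzk1 was at 126, 105 and 131, so that the neighbour did not show the same order. 1700019G24Rik (chr6:5963909-5977393, minus strand), inside Dync1i1, a dynein intermediate chain gene, with no shared exon base, was at 239, 153 and 172, while Dync1i1 was at 1.43, 0.97 and 1.41.

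Gm10501 (chr17:34976899-34981788, minus strand) lies across Hspa1l, a testis HSP70 chaperone gene, and shares 80.8% of its exon bases with the other strand. It was at 169 in MiwiΔIns, 190 in MiwiR371W and 190 in WT, beside 225, 249 and 236 for Hspa1l. Gm16535 (chr1:87264481-87265174, minus strand), opposite Efhd1, a calcium-binding protein gene, was highest in MiwiR371W, at 137, 216 and 161. Efhd1 was at 378, 428 and 417, also highest in MiwiR371W, and 76.5% of the member's exon bases are shared with the other strand. 1700108N11Rik (chr2:144331459-144332639, plus strand), whose start points away from that of Ovol2, a zinc-finger transcription factor gene, was lower in both mutants, at 149, 151 and 200, with log2 ratios to WT of −0.42 and −0.40. Its exons also overlap the other strand, which shares 39.1% of their bases, and Ovol2 was at 147, 160 and 146. 1700016G14Rik (251, 153 and 195) and 2810408I11Rik (222, 148 and 172) were highest in MiwiΔIns and lowest in MiwiR371W. In all, 7 of the 10 were highest in MiwiΔIns, and none of the 21 members with a mean of 100 or more passed the call rule that follows.

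A gene was called where 2 libraries differed at least 2-fold on the log2(value + 1) scale with at least 5 in the higher one. Each genotype had a single library, which allows no test, so a call describes these libraries and has no replicate check. In MiwiΔIns against WT, 15 members (6.55%) were called, 12 higher and 3 lower, against a background of 1.35% of the 8279 genes with a mean of at least 5 (0.954% higher and 0.399% lower). In MiwiR371W against WT, 21 (9.17%) were called, 6 higher and 15 lower, against 2.43% (0.894% higher and 1.53% lower). In MiwiR371W against MiwiΔIns, 32 (14.0%) were called, 7 higher and 25 lower, against 3.61% (0.737% higher and 2.87% lower). Each share lay well above that of all genes. Other noncoding types were also above that: of 214 lincRNA genes at the same minimum 6.07%, 6.07% and 16.4% were called, and of 177 pseudogenes 8.47%, 11.3% and 12.4%, while protein-coding genes gave 0.783%, 1.82% and 2.66%.

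Calls were most frequent among short members. Limits of length were set after the values were seen. Among members under 500 nt, 9 of 39 (23.1%) were called in MiwiΔIns against WT, 6 (15.4%) in MiwiR371W against WT and 12 (30.8%) between the mutants, beside 8.44%, 10% and 15% of genes of other types in that length. From 500 up to 1000 nt the shares were 4.13%, 10.7% and 13.2% of 121 members, beside 1.38%, 2.31% and 3.95%. Of 59 members of 1000 nt or more, 0, 1 and 1 were called, which are 0%, 1.69% and 1.69%, beside 0.463%, 1.52% and 1.85% of other genes. An excess over other types was seen below 1000 nt. With 59 members and at most 1 call per comparison, the counts at 1000 nt or more cannot show whether one is absent there. Genes of other types were not matched for level. Members had a median transcript of 687 nt, against 1155 nt for all genes with a mean of at least 5.

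**Figure D2:**
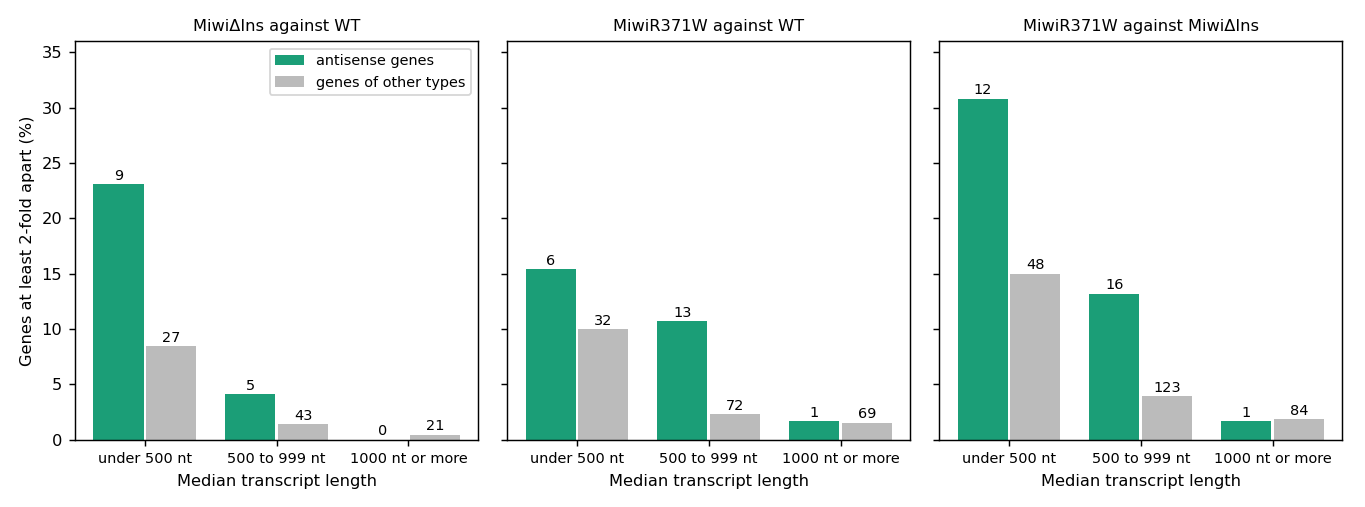
Percent of genes called in each comparison by median transcript length (under 500, from 500 up to 1000, and 1000 nt or more), members in green beside genes of other types in grey, with the number called above each bar. Bars of members are the taller below 1000 nt in all 3 panels, 23.1% against 8.44% for the shortest in MiwiΔIns against WT, and both are under 2% above that length.

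The ratios of the whole set leaned one way in each comparison. The median log2 ratio of the members was 0.22 in MiwiΔIns against WT, with 156 of 229 above 0, against 0.03 for all genes. It was −0.15 in MiwiR371W against WT, with 90 above 0, against 0.03, and −0.38 in MiwiR371W against MiwiΔIns, with 55 above 0, against 0.00. MiwiΔIns was the highest library for 58.5% of members (35.8% of all genes), and MiwiR371W the lowest for 55.0% (35.7% of all genes). The median ratios of lincRNA genes were 0.18, 0.00 and −0.21, and those of protein-coding genes 0.03, 0.03 and 0.02. Processed transcripts stood at 0.21, −0.04 and −0.24, pseudogenes at 0.14, −0.06 and −0.16, and genes of other types under 500 nt at 0.15, −0.08 and −0.22, beside 0.32, −0.02 and −0.61 for members under 500 nt. At 1000 nt or more the members were at 0.18, −0.16 and −0.31, and genes of other types at 0.01, 0.05 and 0.05. The order of these libraries by fragments per unit of value, MiwiΔIns first and MiwiR371W last, is the same; its part in the lean was not tested. The 3 comparisons share libraries, and their values stand side by side without a test between them.

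**Figure D3:**
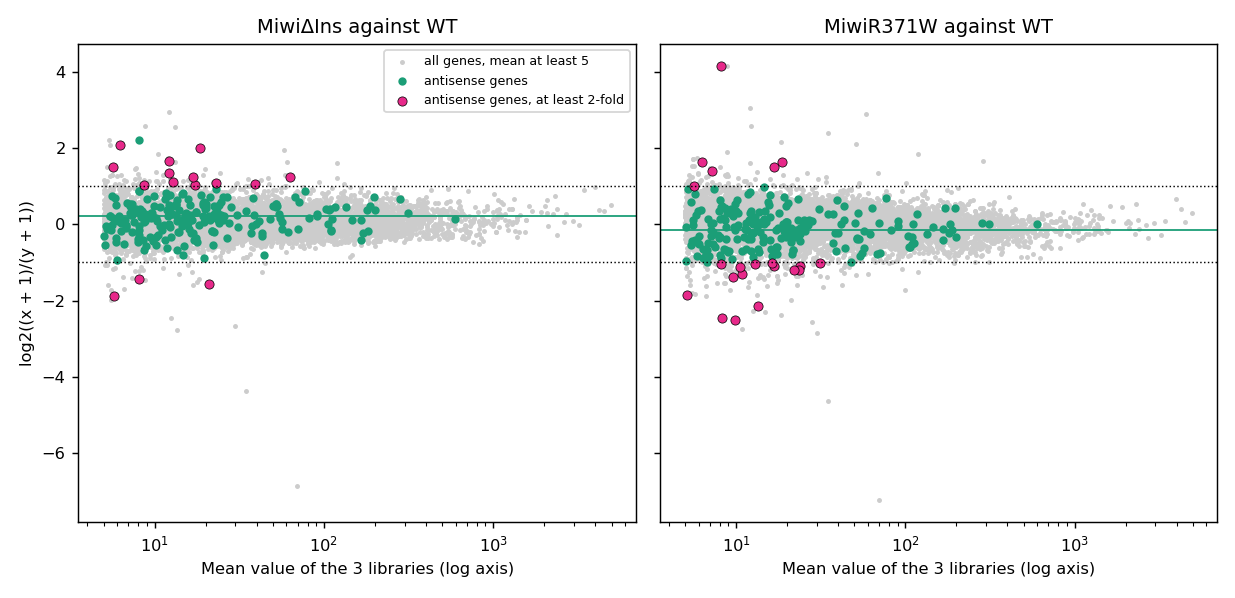
Log2((x + 1)/(y + 1)) of each mutant to WT against the mean of the 3 libraries (log axis), with all genes in grey, members in green, called members in pink, the 2-fold limits dotted and the members' median as a green line. The line lies at 0.22 for MiwiΔIns and at −0.15 for MiwiR371W, and no pink point lies at a mean of 100 or more.

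Values of members also spread more across the libraries than those of genes at large, which were longer and more abundant at the median. The highest library was less than 1.5-fold above the lowest for 37.6% of members, against 69.9% of all genes with a mean of at least 5, and at least 2-fold above it for 24.9% against 7.26%. These shares were not matched for length or level, and none is given for other noncoding types. Whether the wider spread is particular to antisense genes, and the part of counting error in it, was not tested. In all, 48 members (21%) were called in at least 1 of the 3 comparisons, against 450 of all genes (5.44%).

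Of these, 4 (1.75%) were higher in both mutants than in WT, and none was lower in both; over all genes these numbers were 21 (0.254%) and 11 (0.133%). 1700006D18Rik (chr7:97598349-97645112, minus strand), with no exon base shared with Rsf1, a chromatin remodelling subunit gene that it overlaps, was at 28.0 in MiwiΔIns, 21.6 in MiwiR371W and 6.30 in WT. Both mutant libraries were over 3 times the WT value, at log2 ratios of 1.99 and 1.63, and Rsf1 was level at 16.1, 15.3 and 16.9. Gm14104 (chr2:132845999-132847256, minus strand), which shares 2 exon bases with the other strand, lies opposite Crls1, the cardiolipin synthase gene, and was at 10.1 in MiwiΔIns, 7.14 in MiwiR371W and 1.64 in WT. Crls1 was at 127, 59.7 and 95.1, which is higher than WT in 1 mutant and lower in the other, unlike the member. 4930527E20Rik (chr2:30803793-30807429, plus strand), 132 nt from the start of 1700001O22Rik, was at 19.4 in MiwiΔIns, 23.5 in MiwiR371W and 7.66 in WT, beside 228, 203 and 178 for its neighbour. Gm13539 (chr2:25782257-25787022, plus strand), whose promoter window is printed above and which GENCODE M21 types as protein-coding, was at 8.65, 5.92 and 2.44. It sits opposite Gm13538, at 3.77, 2.10 and 1.19. The members other than Gm13539 are 324 to 356 nt long, and for them fragments were not estimated. With a pseudocount of 5 in place of 1, 1700006D18Rik kept both calls, while Gm13539 lost both, Gm14104 that in MiwiR371W and 4930527E20Rik that in MiwiΔIns.

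**Figure D4:**
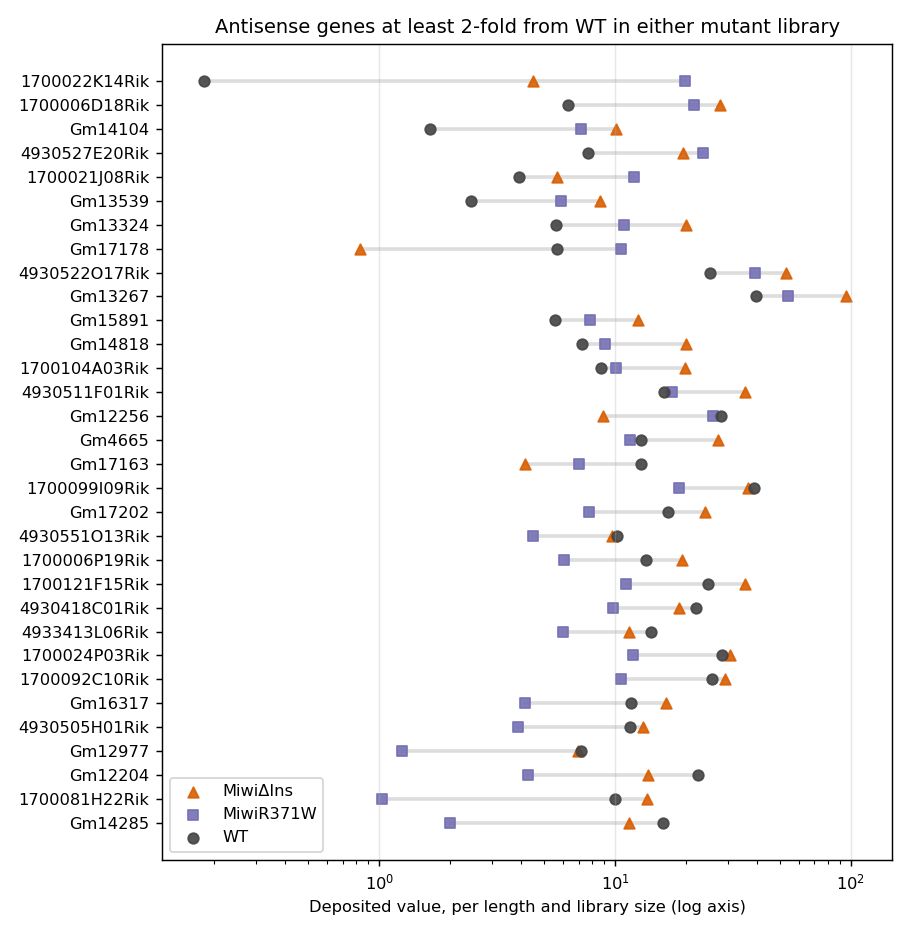
Deposited values (log axis) of all members called in either mutant against WT, with 1 point for each of the MiwiΔIns, MiwiR371W and WT libraries. 1700006D18Rik shows WT to the left of both mutants, and 1700081H22Rik shows MiwiR371W to the left of the others.

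Among members called higher in MiwiΔIns alone, the most abundant was Gm13267 (chr2:5895510-5900131, plus strand), whose start lies 78 nt from that of Dhtkd1, a mitochondrial dehydrogenase subunit gene. It stood at 95.8 in MiwiΔIns, 54.2 in MiwiR371W and 39.7 in WT, a log2 ratio to WT of 1.25 in MiwiΔIns and 0.44 in MiwiR371W. Dhtkd1 was at 1.58, 2.72 and 3.55, with the opposite order of libraries, and 13.7% of the exon bases of Gm13267 are shared with the other strand. Gm13324, which overlaps Nebl without shared exon bases, was at 19.9, 10.9 and 5.62, and Gm14818, which has no gene model here, at 19.9, 9.09 and 7.23. 4930522O17Rik (chr4:53246196-53251115, plus strand), with no opposite gene by the rule used here, was at 53.0, 39.4 and 25.2, just past the limit at 1.05. It fell short of the limit with a pseudocount of 5 (0.94), under upper-quartile scaling (0.98), under equal sums (0.97) and with the trend on GC and length removed (0.77).

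The 3 members lower in MiwiΔIns all share exon bases with their partners. Gm17178 (chr11:120689146-120709447, minus strand) was at 0.83 in MiwiΔIns, 10.6 in MiwiR371W and 5.70 in WT. Of its exon bases 99.4% belong also to exons on the other strand, and its partner Aspscr1 was at 135, 176 and 182. Gm12256 (chr11:58889710-58891548, plus strand) was at 8.89 in MiwiΔIns, 25.96 in MiwiR371W and 28.1 in WT, and 99.6% of its exon bases are shared with the other strand. Its partner Zfp39, a zinc finger gene, was at 147, 178 and 137. In Gm17178 and Gm12256, MiwiΔIns was far below the other libraries while the partner's libraries lay within 1.5-fold of each other. Gm17163, opposite Ccdc13, was at 4.15, 7.05 and 12.9, and Ccdc13 at 72.7, 88.3 and 100. With a pseudocount of 5 the log2 ratio of Gm17178 was −0.88 and that of Gm17163 −0.97, short of the limit. Of the 15 calls in this comparison 6 held with a pseudocount of 5.

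In MiwiR371W against WT, 15 of the 21 called members were lower. With a pseudocount of 5, 3 were higher and 3 lower. 1700081H22Rik, or Nell1os (chr7:50517309-50575971, minus strand), inside Nell1 with no shared exon base, was at 13.7 in MiwiΔIns, 1.03 in MiwiR371W and 10.03 in WT. Its log2 ratio of MiwiR371W was −2.44 to WT and −2.85 to MiwiΔIns, and Nell1, a secreted growth factor gene, was at 0.22, 0.08 and 0.34. Gm14285 (chr2:131561614-131563179, plus strand), opposite Adra1d, an adrenergic receptor gene, was at 11.5, 1.99 and 15.9. Gm12204 (chr11:52000853-52001911, plus strand) was at 13.7, 4.29 and 22.5. MiwiR371W was the lowest library in each, and each kept its call to WT under all other pseudocounts and scalings tried.

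Longer members of this group allow a look at counting error. 4930505H01Rik, or Nudt12os, was at 13.1 in MiwiΔIns, 3.87 in MiwiR371W and 11.6 in WT, on about 105, 21 and 79 fragments. Gm16317, which overlaps Runx2, a transcription factor gene, without shared exon bases, was at 16.5, 4.17 and 11.7, on about 105, 18 and 62 fragments. Gm12977 (chr4:133871830-133876533, plus strand), whose start points away from that of the kinase gene Rps6ka1, was at 6.98, 1.25 and 7.17, on about 50, 6 and 43. It shares 21.1% of its exon bases with the other strand. Counting alone gives the log2 ratio of MiwiR371W to WT, taken without a pseudocount, an SD of about 0.35, 0.39 and 0.63 in these 3 genes. The ratios of these genes with a pseudocount of 1, a different scale, were −1.37, −1.30 and −1.86. With a pseudocount of 5 their ratios were −0.90, −0.86 and −0.96, short of the limit.

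1700121F15Rik, or Ube4bos3 (chr4:149334639-149335897, plus strand), was the only member called together with its partner in the same comparison, which it was in MiwiR371W against WT and against MiwiΔIns. It was at 35.6 in MiwiΔIns, 11.2 in MiwiR371W and 24.8 in WT, on about 237, 50 and 137 fragments. Ube4b, which encodes a ubiquitin chain elongation factor, was at 19.4 in MiwiΔIns, 109 in MiwiR371W and 24.9 in WT. Member and partner thus went opposite ways in MiwiR371W, at log2 ratios to WT of −1.08 and 2.09 and to MiwiΔIns of −1.59 and 2.44. Of the member's exon bases 39.2% are shared with exons on the other strand. The member's ratio to WT was −0.88 with a pseudocount of 5.

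The largest ratio of all was that of 1700022K14Rik, which has no gene model here. It was at 4.48 in MiwiΔIns, 19.7 in MiwiR371W and 0.18 in WT, so MiwiR371W was 4.13 above WT and 1.92 above MiwiΔIns on the log2 scale. In MiwiΔIns its value stayed under 5, which kept it out of the calls against WT. 1700021J08Rik, opposite Hectd3, a ubiquitin ligase gene, shares 65% of its exon bases with the other strand. It was at 5.70, 12.1 and 3.93, and its log2 ratio of MiwiR371W to WT was 1.41, or 0.93 with a pseudocount of 5. The other 8 members lower in MiwiR371W than in WT had log2 ratios from −1.21 to −1.02. Of the 21 calls 6 held with a pseudocount of 5, and scaling to equal sums without mitochondrial and top genes gave 7 higher and 11 lower in place of 6 and 15. Under that scaling all genes stood at 94 higher and 93 lower, in place of 74 and 127.

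Between the mutants, MiwiR371W was the lower in 25 of 32 called members. Among those with an estimate, the one with the most fragments was 4921534H16Rik (chr9:98003420-98012175, plus strand), named after its values were seen as the sole member called here of 1000 nt or more. It was at 40.9 in MiwiR371W and 104 in MiwiΔIns, a log2 ratio of −1.32, with WT between them at 69.1, on about 790, 2748 and 1658 fragments in the same order of libraries. Counting gives its log2 ratio between the mutants, taken without a pseudocount, an SD of about 0.06. The members higher in MiwiR371W included Gm17178 and Gm12256, described above for their low values in MiwiΔIns, and Gm11583, opposite Kpnb1, the importin beta gene. All exon bases of Gm11583 are shared with exons on the other strand. Gm11583 was at 18.6 in MiwiR371W, 6.43 in MiwiΔIns and 10.4 in WT, and Kpnb1 was at 57.9, 34.4 and 34.9 in that order. Partner and member were here highest in the same library. Of the 32 calls 20 held with a pseudocount of 5.

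The lean of the set was larger among members that share no exon base with an opposite gene. The 90 members without a shared exon base had median log2 ratios of 0.33 in MiwiΔIns against WT, −0.18 in MiwiR371W against WT and −0.57 between the mutants. Those of the 129 with shared exon bases were 0.14, −0.11 and −0.26, and those of the 31 sharing over 50% were 0.04, −0.03 and −0.24. Members overlapping an opposite gene outside its exons stood at 0.36, −0.23 and −0.62. Among them were 4930596M17Rik, at 140 in MiwiΔIns, 71.4 in MiwiR371W and 109 in WT, and 4930469G21Rik, RefSeq Tex50, at 95.7, 83.0 and 51.6. The log2 ratio of Tex50 in MiwiR371W against WT was 0.68, against the direction of the median.

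The 12 members beside a divergent start, with no overlap, stood at 0.40, 0.08 and −0.22. They include 1700013G23Rik, or Med9os, 64 nt from Med9, a Mediator subunit gene, at 172 in MiwiΔIns, 106 in MiwiR371W and 126 in WT. 4930555J06Rik, or Arl4aos, was at 42.0, 35.4 and 41.9, beside 603, 514 and 470 for the small GTPase gene Arl4a. In any position class, 71 members had an opposite start within 1 kb, at a median distance of 118 nt.

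Ratios of members and partners were compared by position. Across the 92 pairs with shared exon bases and a partner mean of at least 5, Pearson's r between the log2 ratios of member and partner was 0.36 in MiwiΔIns against WT and 0.04 in MiwiR371W against WT. Spearman's rho was 0.26 and 0.14, so the 2 mutants lay closer by rank. Across 32 pairs without shared exon bases Pearson's r was 0.02 and −0.05, and across 10 divergent pairs 0.15 and −0.09. Among the 25 pairs whose member shares over 50% of its exon bases with the other strand it was 0.29 in MiwiΔIns against WT, 0.31 in MiwiR371W against WT and 0.58 between the mutants. Among the 67 pairs whose member shares 50% or less it was 0.40, −0.02 and 0.02 in the same order. Between the mutants it was 0.12 across the 32 pairs without shared exon bases and 0.12 across the 10 divergent pairs. For all pairs with shared exon bases, Pearson's r between the mutants was 0.17 and Spearman's rho 0.37. Across the 53 pairs of members with a divergent start in any class r was 0.36 in MiwiΔIns against WT and −0.02 in MiwiR371W against WT. These are descriptions across pairs whose points share the same libraries, and the genes are not independent replicates. Of the pairs with shared exon bases the member was above its partner in all 3 libraries in 51 of 123, and below it in 62.

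**Figure D5:**
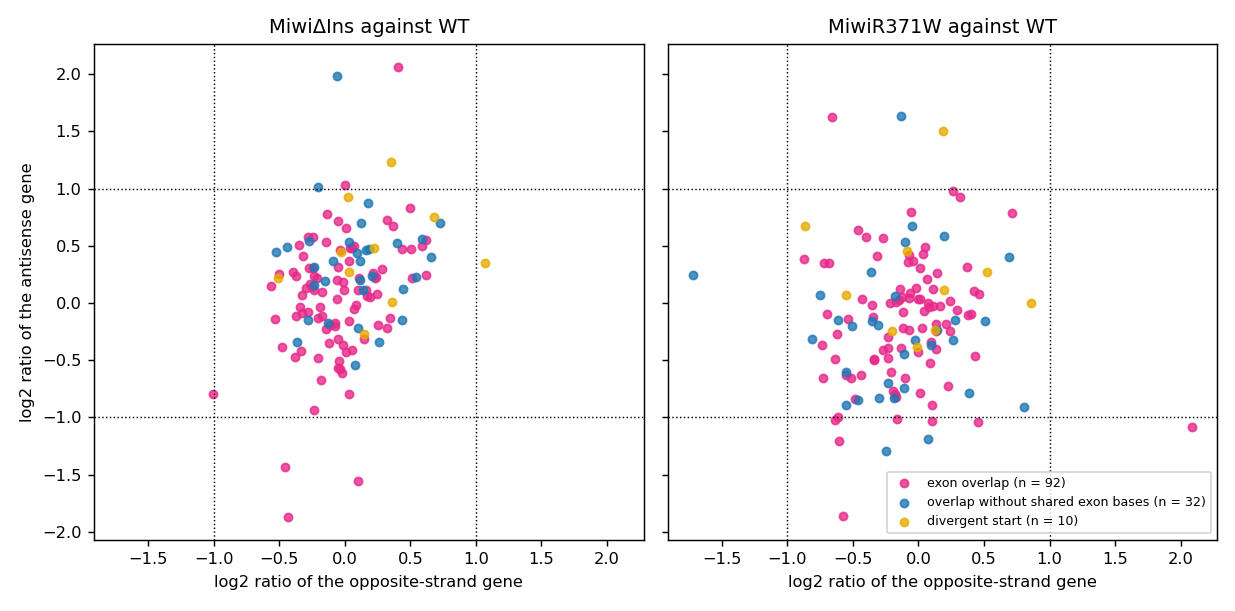
Log2 ratio to WT of each member (vertical axis) against that of its partner (horizontal axis) in each mutant, for 92 pairs with shared exon bases, 32 that overlap without them and 10 divergent pairs, with 2-fold limits dotted. 1700121F15Rik lies alone at a partner ratio of 2.09 and a member ratio of −1.08 in MiwiR371W against WT.

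Lists of known roles and of spermatid genes were set beside the members. Of 28 antisense and related RNAs with described roles, 9 were in the table. Of these, 3 had the type antisense, which the rule for members requires, and 1 was a member. That was Dlx6os1, which regulates Dlx genes in the brain of mice, at 11.6 in MiwiΔIns, 6.58 in MiwiR371W and 5.92 in WT. Of 99 listed spermatid genes in the table, 2 (2.02%) were partners, as were 1.05% of all genes of the table. Spaca3, which encodes an acrosomal protein, was at 188, 125 and 184, and its divergent neighbour 4930507D10Rik at 16.8, 14.5 and 13.8. The other was Spag17, of the sperm tail's central apparatus, opposite B930086A06Rik. None of these members was called against WT. By chromosome, 2, 4 and 11 together held 87 of the 219 placed members (39.7%), close to the 41.1% of all antisense genes of the table and above the 20.8% of antisense genes in GENCODE M21. The X chromosome held 1, Gm4779 (0.457%), against 1.28% of all antisense genes of the table and 2.71% of protein-coding genes with a mean of at least 5.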

How the data were processed

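Messenger RNA of sorted round spermatids was measured in 1 library per genotype, made with the VAHTS mRNA-seq V3 kit per the labels' protocols. The authors deposited 1 table of signal values, normalised to transcript length and library size; whether they are FPKM or TPM is not given in the sources used here, so ratios between libraries may carry a constant factor. Trim Galore 0.5.0, STAR and RSEM, with mm10 (GRCm38), are named per the submitters' processing notes. The table lists no gene at 0 in any library. Replicate checks and tests were not possible.

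Analysis used Python 3.11.15, numpy 2.4.6, pandas 2.3.3 and scipy 1.17.1, with matplotlib 3.10.9 for plots. Ratios were log2((x + 1)/(y + 1)). Positions, lengths and partners came from GENCODE M21, where the partner is the opposite gene with most shared exon bases, else most shared span, else the nearest divergent start. Depth was estimated from the steps in values of single-transcript genes longer than 2500 nt, which gave 0.0685 value × kb per fragment in MiwiΔIns, 0.0915 in MiwiR371W and 0.0735 in WT, and was not applied to members under 600 nt. Values in that fit lay on average 0.154, 0.119 and 0.132 steps from a whole step in MiwiΔIns, MiwiR371W and WT. Fragment numbers and the SDs from them are therefore approximate. Counting SDs cover counting error only and are for ratios without a pseudocount. The procedures were tested on simulated data.

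Named members were the 10 most abundant, up to 6 each way per comparison and for both mutants, the leaders of each position class, those at the limit of 5 and those with known roles; some of these are given only as ranges. The members and lists were chosen with earlier results of these data known. Alternatives were pseudocounts of 0.1 and 5, 4 other scalings or trends, other minimum means, and leaving out members that share exon bases.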

Additional observations from a re-analysis of the deposited data

How the results depend on the processing

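No direction of a median or of a named call turned under the alternatives run. With a pseudocount of 5 the calls fell to 6 in MiwiΔIns against WT, 6 in MiwiR371W against WT and 20 in MiwiR371W against MiwiΔIns, in place of 15, 21 and 32. These calls were 2.62%, 2.62% and 8.73% of members, against 0.483%, 0.858% and 1.90% of all genes. With a minimum mean of 10 they were 12 in MiwiR371W against WT and 21 between the mutants, and without members that share exon bases 8, 9 and 16, on fewer members. With a minimum mean of 1, or none, 24 were called in MiwiΔIns against WT, among 404 and 571 members. The median of MiwiΔIns against WT, 0.22, was 0.15 under upper-quartile scaling and under equal sums, 0.13 with a minimum mean of 1, 0.084 with none and 0.31 without exon-sharing members. That of MiwiR371W against MiwiΔIns, −0.38, was −0.25 under equal sums, −0.29 and −0.16 with those minimums and −0.57 without exon-sharing members. In MiwiΔIns against WT, all genes had a median of 0.03 as deposited, −0.03 under upper-quartile scaling and −0.04 under equal sums. Equal sums moved the median of all genes by 0.13 between the mutants. With the trend on GC and length removed, the 219 members with a model stood at 0.16, −0.16 and −0.32 in the 3 comparisons. All genes then stood at 0.03, 0.03 and −0.01. Calls of members were 11, 21 and 26 (5.02%, 9.59% and 11.9%), against 1.01%, 2.26% and 2.94% of all genes. Apart from fewer genes or members entering, the cause was not tested. No paired analysis was possible because each genotype had 1 library. Short transcripts and 1 library per genotype limit every value here.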
